A study of Mus musculus with 22 samples.

Results

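The keratin genes were taken as every gene whose symbol is Krt followed by a number and at most 1 letter, which gave 51 of the 46078 genes in the table. They were followed through bulk RNA-seq libraries of distal colon from 22 mice. The C57BL/6 group held 8 wild-type control mice of 14 weeks, 4 male and 4 female. The Winnie group held 7 mice of the same age, 3 male and 4 female, labelled inflamed; Winnie is a line with a missense mutation in the mucin gene Muc2 that develops colitis without any treatment. The Winnie-Prolapse group held 7 Winnie mice with prolapse, 4 male and 3 female, labelled severely inflamed and 18 weeks old, so that prolapse and age cannot be told apart in any comparison with it. Each library is 1 mouse, and replicates were numbered within a group only to name them.

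Keratins are the intermediate filament proteins of epithelial cells. A filament is built from type I and type II keratins in equal parts, so the members work as pairs, and each kind of epithelium has its own pairs. The lining of the colon is a single layer that uses Krt8 with Krt18, Krt19 and Krt20. Stratified squamous epithelium, as in skin, mouth and the anal canal, uses Krt5 with Krt14 in its basal layer, Krt1 with Krt10 in the cornifying layers of skin, and Krt4 with Krt13 in the upper layers of moist mucosa. Krt6a, Krt6b, Krt16 and Krt17 are induced in wounded and fast-growing squamous epithelium, and a large subfamily builds the hair follicle and hair shaft. The members were grouped by these roles into 7 simple, 3 basal, 5 mucosal, 4 wound, 5 cornified and 24 hair keratins, with 3 others.

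All members lie in a pair of clusters of the GRCm38 genome. The type I cluster on chromosome 11 holds 27 of them over 1037 kb (chr11:99232761-100269871), and the type II cluster on chromosome 15 holds 24 over 685 kb (chr15:101347444-102032027). Krt18, a type I gene, is the exception in position, since it lies in the type II cluster 23.7 kb from its partner Krt8. Neighbours in a cluster did not always share a role. Krt19 of simple epithelium stands between Krt15 of basal squamous cells, 4.88 kb away, and Krt9 of palm and sole skin, 38.1 kb away, and Krt20 stands between Krt12 and Krt23. The wound keratins Krt6b and Krt6a lie 9.62 kb apart, with basal Krt5 a further 12.8 kb on.

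The 250 bases before the start site are printed for 3 type I members that differed in behaviour across the groups: Krt20 of surface colonocytes (chr11:99438154-99438403), Krt13 of moist squamous mucosa (chr11:100121567-100121816) and Krt10 of cornifying skin (chr11:99389365-99389614). All 3 are on the minus strand and written 5′ to 3′, from RefSeq on GRCm38.p6. Capitals mark matches on either strand to 4 letter patterns: TATAAA for a TATA box, TTTATG for CDX factors of the intestine, TGANTCA for AP-1 and AACCNGTT for grainyhead-like factors.
Krt20: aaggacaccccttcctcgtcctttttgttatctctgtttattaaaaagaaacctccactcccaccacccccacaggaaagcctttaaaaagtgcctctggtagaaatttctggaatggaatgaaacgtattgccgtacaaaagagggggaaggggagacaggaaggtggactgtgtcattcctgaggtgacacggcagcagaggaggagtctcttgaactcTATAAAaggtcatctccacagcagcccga
Krt13: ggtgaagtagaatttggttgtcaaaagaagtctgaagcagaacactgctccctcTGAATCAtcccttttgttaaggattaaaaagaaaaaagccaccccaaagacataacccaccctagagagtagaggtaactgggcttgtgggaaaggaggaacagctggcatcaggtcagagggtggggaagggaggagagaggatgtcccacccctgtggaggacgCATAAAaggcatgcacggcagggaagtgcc
Krt10: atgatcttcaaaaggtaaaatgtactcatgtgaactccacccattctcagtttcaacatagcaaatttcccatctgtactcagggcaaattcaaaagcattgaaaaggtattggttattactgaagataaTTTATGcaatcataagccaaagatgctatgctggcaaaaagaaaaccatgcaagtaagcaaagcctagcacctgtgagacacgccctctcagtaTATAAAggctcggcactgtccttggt
The Krt20 window held a TATA box 29 bases before the start and none of the other patterns. The Krt13 window held an AP-1 match 196 bases before the start and a CDX match 30 bases before it, and the Krt10 window held a TATA box at 26 bases and a CDX match at 120 bases. Over the 36 windows found for 35 members, TATAAA was present in 47.2%, against 12.4% of all 32851 promoters, and TTTATG in 44.4% against 10.8%. The AP-1 pattern was present in 5.56% of the members' windows, both of them Krt13 starts, against 6.75% of all promoters, and the grainyhead-like pattern in none of the 36 against 1.79%. Most members with TATAAA were hair keratins, though Krt36, Krt39, Krt75, Krt79 and Krt82 lacked it. Among simple keratins Krt20 had it and Krt7, Krt8, Krt18 and Krt23 did not. Among cornified keratins Krt10 had it and Krt2, Krt9 and Krt77 did not. The matches are letters in a window, not measured sites.

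Libraries held 24817527 to 36344372 counts, so that a floor of 3 counts corresponds to 0.0825 to 0.121 CPM (counts scaled to a library total of 1e6). The 10 markers of colon epithelium, such as Epcam, Vil1 and Cdx2, were above the floor in every library, with summed levels of 12549 to 15424 CPM in C57BL/6, 9697 to 15269 CPM in Winnie and 7219 to 13642 CPM in Winnie-Prolapse mice. Markers of squamous epithelium other than keratins set 6 libraries apart from the rest. All 14 were above the floor in Winnie-Prolapse replicates 2, 4, 5, 6 and 7, and 12 in Winnie replicate 2, against 7 in Winnie-Prolapse replicates 1 and 3, 5 to 7 in the other Winnie and 4 to 5 in the C57BL/6 libraries. Trp63, the transcription factor that defines basal squamous cells, was at 7.22 to 39.1 CPM in those 5 Winnie-Prolapse libraries and at 1.09 CPM in Winnie replicate 2, and at most 0.236 CPM elsewhere. Winnie-Prolapse replicate 6 also held milk protein transcripts at 179624 CPM, and replicate 5 at 54.2 CPM, against 1.85 to 5.49 CPM in all others. Krt5, Krt6a, Krt6b, Krt7, Krt8, Krt10, Krt12, Krt32, Krt75, Krt76 and Krt80 each overlap an antisense gene whose reads may be mixed with theirs, since the use of strand in counting is not given in the sources used here. Smooth muscle markers summed to 6119 to 11011.5 CPM in C57BL/6, 1850.4 to 6937 CPM in Winnie and 1243 to 2970.3 CPM in Winnie-Prolapse mice.

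The simple keratins made up nearly all keratin transcripts of the control colon. Summed over the 7 members, they stood at 5286 to 8467 CPM in C57BL/6 mice, and the other 44 members together at 17.4 to 25.9 CPM, which is 0.289% to 0.416% of all keratin counts. Per kilobase of exon, Krt8 (1355 ± 115 CPM per kb, SD, n = 8) and Krt19 (1326 ± 137) did not differ beyond their spread, followed by Krt20 (422 ± 292) and Krt18 (235 ± 38.9), whose ranges met. Krt7, a keratin of ducts and of some glandular epithelia, was far lower at 13.3 ± 2.73 CPM per kb, and every other member was at or below 3.53. Lengths here are all annotated exon bases of a gene, 7049 for Krt7 against 4094 in its longest protein-coding transcript, which lowers its value. The order Krt8 or Krt19, then Krt20, then Krt18 was the same for the group means of Winnie and Winnie-Prolapse mice, where Krt20 reached 826 ± 286 (n = 7) and 727 ± 250 CPM per kb (n = 7).

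**Figure D1:**
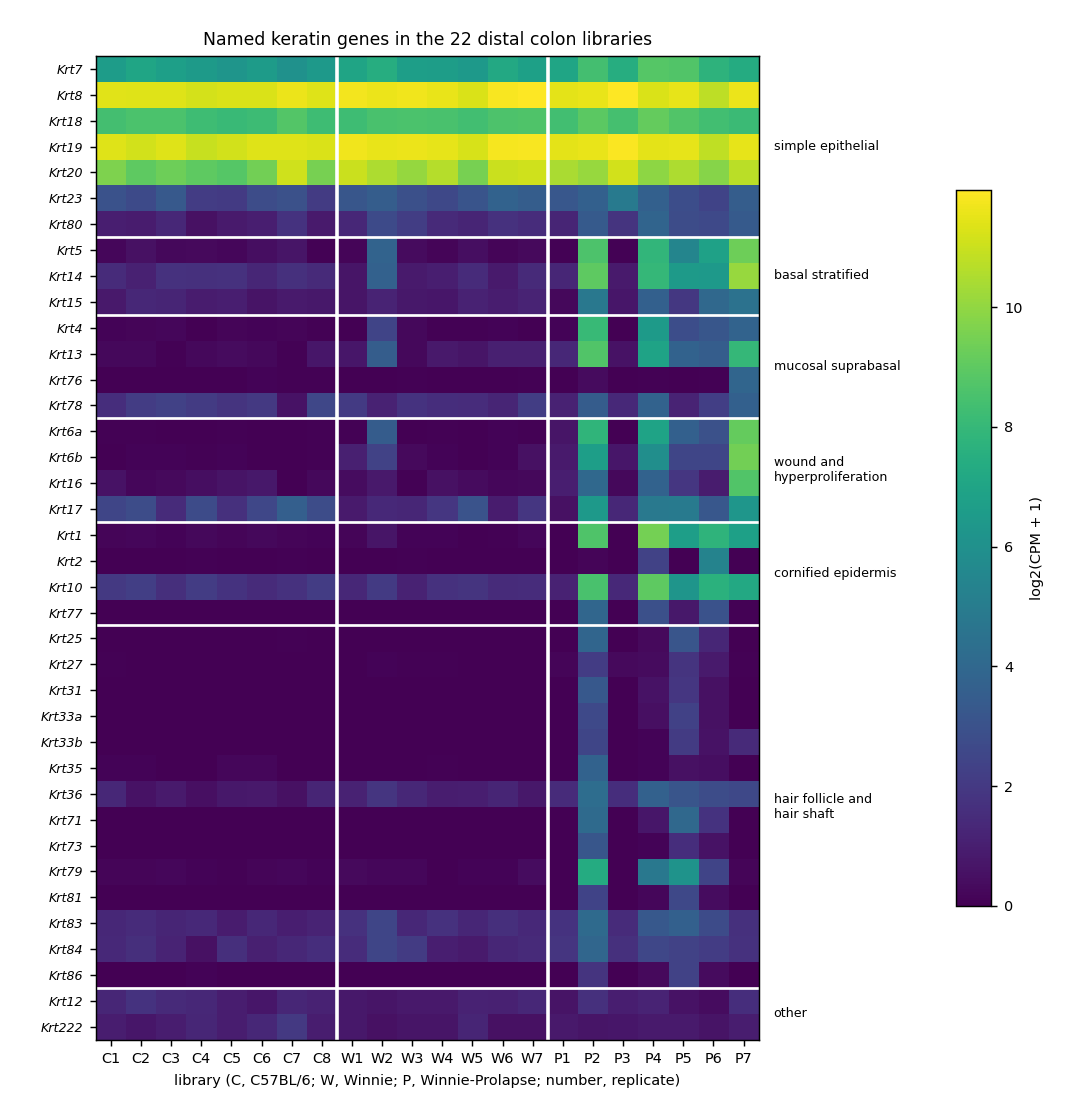
Level of the 38 named keratins (rows, grouped by role) in each of the 22 libraries (columns; C, C57BL/6; W, Winnie; P, Winnie-Prolapse), as log2(CPM + 1). The simple keratins are high in every library, while most basal, mucosal, wound and cornified keratins are high in Winnie-Prolapse replicates 2, 4, 5, 6 and 7 with exceptions such as Krt2 and Krt76, each led by 1 library, and Krt71, Krt25 and Krt79 among the hair keratins are highest in replicates 2 and 5; Krt5, Krt13, Krt14 and Krt6a are also above their group in Winnie replicate 2.

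Whether colitis changed the keratins was asked by comparing Winnie with C57BL/6 mice at 14 weeks. The threshold was the study's own, an adjusted p under 0.001 and at least a 1.5-fold change. It was applied here to edgeR's quasi-likelihood test with Benjamini-Hochberg adjustment over all genes. Of the 51 members 18 had enough counts to be tested, and 0 passed in either direction, while 0.0868% of 17289 genes passed higher and 0.00578% lower. At an adjusted p under 0.05 with the same fold, 5 passed higher and 0 lower, against 7.42% and 8.53% of all genes. The 5 were Krt13, Krt20, Krt23, Krt80 and Krt83, of which Krt13 passed the filter only with the counts of the Winnie group. At an unadjusted p under 0.05 there were 11 members, DESeq2 called 2 at the strict threshold (Krt13 and Krt6b), and limma-voom called 0. The 5 at the looser threshold became 2 higher (Krt20 and Krt80) and 1 lower (Krt222) with all 3 groups in the same fit. With males only, 2 were higher (Krt20 and Krt80) and 2 lower (Krt12 and Krt17), and with females only 0 passed in either direction. With 1 library left out, the number higher ran from 1 to 6.

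Krt20, the keratin of the mature surface colonocyte, gave the widest difference of Krt8, Krt18, Krt19 and Krt20. In C57BL/6 mice it ran from 443 through a median of 663 to 2170.1 CPM, in Winnie from 734 through 1590.3 to 2216 CPM, and in Winnie-Prolapse from 891 through 1413 to 2269 CPM. The C57BL/6 maximum came from replicate 7 alone, the next highest being 812 CPM, and 6 of 7 Winnie and all 7 Winnie-Prolapse libraries were above that second value. Against C57BL/6, the log2 fold change was 1.07 ± 0.34 (SE) in Winnie mice, with an adjusted p of 0.0322 in edgeR's test. It was 0.87 ± 0.34 in Winnie-Prolapse mice with an adjusted p of 0.0397. Without C57BL/6 replicate 7 these became 1.46 with an adjusted p of 0.00192, and 1.29 with an adjusted p of 0.000313, the latter past the strict threshold. The Winnie-Prolapse value missed the looser threshold in 9 of 15 fits with 1 library left out, C57BL/6 replicates 2, 3, 4, 5, 6 and 8 and Winnie-Prolapse replicates 1, 3 and 7. The Winnie value missed it when any of 10 other libraries was left out, C57BL/6 replicates 2, 3, 4, 5, 6 and 8 and Winnie replicates 1, 2, 6 and 7. C57BL/6 replicate 7 also had the highest smooth muscle sum, 11011.5 CPM, whose part in the result was not tested. Winnie-Prolapse and Winnie mice differed by -0.18 ± 0.29 on the log2 scale, with an adjusted p of 0.719. Of the 10 colon epithelium markers, 3 were lower (Car1, Slc26a3 and Phgr1) and 0 higher in Winnie-Prolapse against C57BL/6 mice at the looser threshold. Car1, a carbonic anhydrase, fell there by 2.98 ± 0.40 on the log2 scale (2.57e-05). Slc26a3, the chloride and bicarbonate exchanger, fell by 2.55 ± 0.51 (0.000714). Vil1 (0.25 ± 0.17, 0.238), Cdh1 (0.16 ± 0.11, 0.232), Epcam, Cdx1 and Lgals4 did not pass. In Winnie against C57BL/6 mice Vil1 differed by 0.51 ± 0.14 (0.0193), under the fold limit. Car1 (-0.89 ± 0.44, 0.14) and Slc26a3 (-0.53 ± 0.34, 0.264) did not pass there.

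The abundant partners moved less. Krt8, the type II keratin of simple epithelium, had medians of 2642 CPM in C57BL/6 (2365 to 3116), 3326 in Winnie (2489 to 3992) and 2911 in Winnie-Prolapse mice (1763 to 3887). Krt19, a type I partner found from crypt to surface, had medians of 2565 (2014 to 2694), 3083 (2425 to 3691) and 2970.4 CPM (1778 to 3839). Both Winnie-Prolapse minima came from replicate 6, where milk protein transcripts stood at 179624 CPM. CPM are shares of a library's total, and the part of these transcripts in the low values was not tested. The groups overlapped for both genes, and 16.9% of the 100-base exon windows of Krt8 occur in other genes, mainly the pseudogene Krt8-ps. In the fits, Krt8 and Krt19 were compared with edgeR. Their log2 fold changes in Winnie against C57BL/6 mice were 0.41 ± 0.12 for Krt8 (adjusted p of 0.0245) and 0.44 ± 0.13 for Krt19 (0.0195, edgeR), under the 1.5-fold limit. In Winnie-Prolapse mice they were 0.19 ± 0.15 (0.285) and 0.31 ± 0.14 (0.0815). Krt18, the usual type I partner of Krt8, had medians of 317, 374 and 348 CPM, with log2 fold changes against C57BL/6 of 0.18 ± 0.11 (adjusted p of 0.242) in Winnie and 0.28 (0.0791) in Winnie-Prolapse mice. In a bulk library, fewer cells of a type and less RNA per cell cannot be told apart, and these shares also move with the smooth muscle sums given above, whose part in them was not tested.

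Krt7 was higher in the Winnie-Prolapse group, which was also the older. It was at 66.4 to 130.2 CPM in C57BL/6 mice (median 92.1), 87.7 to 174 in Winnie mice (median 110.1) and 130.1 to 451 in Winnie-Prolapse mice (median 213). All but 1 of the 7 Winnie-Prolapse libraries were above every C57BL/6 library; replicate 1 lay at the top of the control range. The log2 fold change was 1.57 ± 0.23 against C57BL/6, with an adjusted p of 4.65e-05 in edgeR's test, and 1.11 ± 0.25 against Winnie mice with an adjusted p of 0.0224. In Winnie against C57BL/6 mice it was 0.47 ± 0.16 with an adjusted p of 0.041, under the fold limit. In Winnie-Prolapse replicates 1 and 3, where Trp63 was at 0.0592 and 0.0605 CPM, Krt7 stood at 130.1 and 174 CPM. A fit with these as the only Winnie-Prolapse libraries, chosen after seeing the data, gave 0.88 against C57BL/6 (adjusted p of 0.014 in edgeR's test).

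The remaining simple members were low. Krt80, a type II keratin of many epithelia including the upper layers of skin, was at 0.47 to 2.35 CPM in C57BL/6, 1.38 to 5.35 in Winnie and 1.33 to 13.6 in Winnie-Prolapse mice. It rose by 2.64 ± 0.43 on the log2 scale in Winnie-Prolapse against C57BL/6 mice (adjusted p of 0.000143) and differed by 1.24 ± 0.34 in Winnie mice (0.0183). Krt80 was at 5.24 to 13.6 CPM in the 5 Winnie-Prolapse libraries with all 14 squamous markers above the floor, and at 1.33 and 2.45 CPM in replicates 1 and 3. The Winnie maximum of 5.35 CPM came from Winnie replicate 2. Krt23, a type I keratin of glandular epithelia, was at 3.12 to 9.08, 5.07 to 12.4 and 4.23 to 29.95 CPM, and its highest value came from Winnie-Prolapse replicate 3, where 7 of 14 squamous markers were above the floor. Its log2 fold changes were 0.74 ± 0.26 in Winnie (adjusted p of 0.047) and 1.19 ± 0.37 in Winnie-Prolapse mice (0.0144). Without Winnie replicate 2, Krt80 and Krt83 no longer passed the looser threshold in Winnie mice, and neither did Krt23, which also lost it without C57BL/6 replicates 2, 4, 5, 6 or 8 or Winnie replicates 1, 6 or 7. Over all 7 simple members the median log2 fold change was 0.47 in Winnie and 0.87 in Winnie-Prolapse against C57BL/6 mice, and 0.10 between the inflamed groups, beside medians of -0.01, -0.01 and 0.01 over all genes tested.

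**Figure D2:**
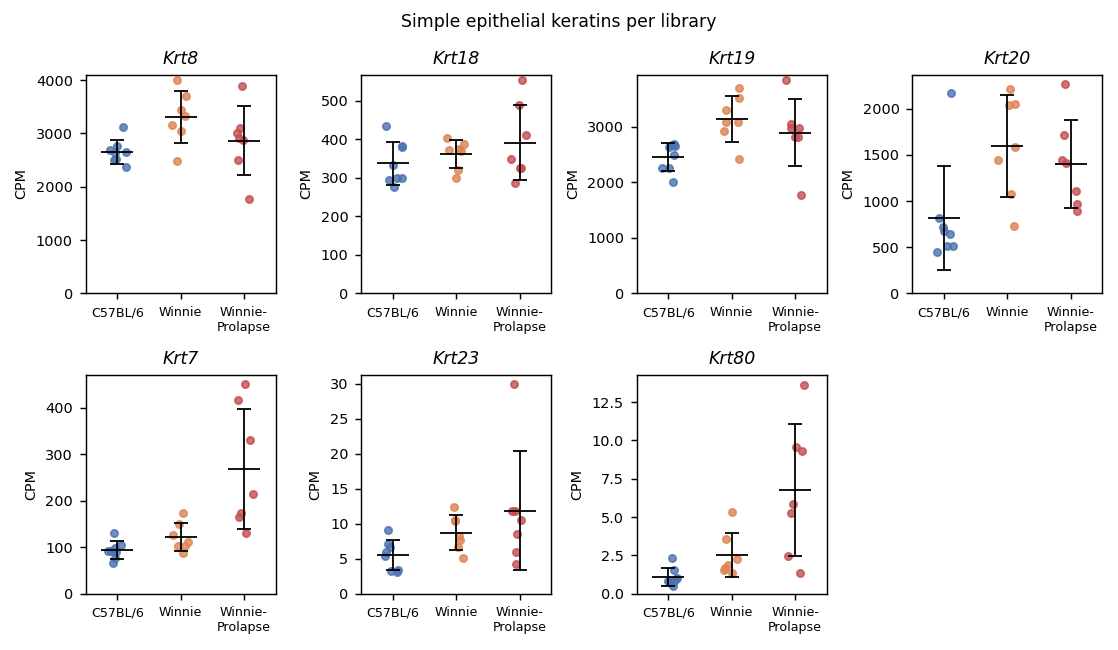
CPM of the 7 simple keratins by group; points are libraries, the black line is the group mean and bars are the SD. Krt7 and Krt80 are highest in Winnie-Prolapse mice, where 6 of 7 libraries exceed every C57BL/6 library, and the C57BL/6 point at 2170.1 CPM for Krt20 is replicate 7.

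In Winnie-Prolapse against C57BL/6 mice 21 members were tested, and 11 rose at the strict threshold while 0 fell. The background was 9.84% of 17397 genes higher and 8.47% lower. The 11, or 52.4% of those tested, were Krt7 and Krt80 of the simple keratins, Krt5, Krt14 and Krt15 of the basal, Krt13 of the mucosal, Krt6b and Krt16 of the wound, Krt10 of the cornified and Krt36 and Krt83 of the hair keratins. At an adjusted p under 0.05 there were 15 higher, with Krt17, Krt20, Krt23 and Krt84 added, and 1 lower, Krt222, against 16.7% and 17.7% of all genes. A member could be tested only with about 10 counts in at least 7 libraries, so Krt1, Krt4 and Krt6a, high in 5 Winnie-Prolapse libraries, and Krt79, high in 4, had no test. Of the 11 that rose, Krt5, Krt6b, Krt13 and Krt16 had too few C57BL/6 libraries at that level and passed the filter only with the counts of the Winnie-Prolapse group. These hold the only mucosal and both wound members, so those roles rest on members tested through the group where they were high. At the strict threshold limma-voom called 3, Krt7, Krt36 and Krt80, and no basal, mucosal, wound or cornified member, females only 3 (Krt1, Krt4 and Krt10), and males only 0. In Winnie-Prolapse against Winnie mice 22 members were tested and 0 passed the strict threshold in either direction, as did 0% of 17041 genes. At an adjusted p under 0.05, 12 members were higher and 0 lower, against 4.27% and 2.72% of all genes. They were Krt5, Krt6a, Krt6b, Krt7, Krt10, Krt13, Krt14, Krt15, Krt16, Krt17, Krt36 and Krt83. At the same looser threshold limma-voom called 2 of them (Krt7 and Krt36), and males only and the fit without the libraries with Trp63 at 1 CPM or more called 0. Krt5, Krt6a, Krt6b, Krt13 and Krt16 had too few Winnie libraries at the filter's level and were tested only with the counts of the Winnie-Prolapse group. At an unadjusted p under 0.05 there were 15, and at the strict threshold DESeq2 called 13 and limma-voom 0.

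**Figure D3:**
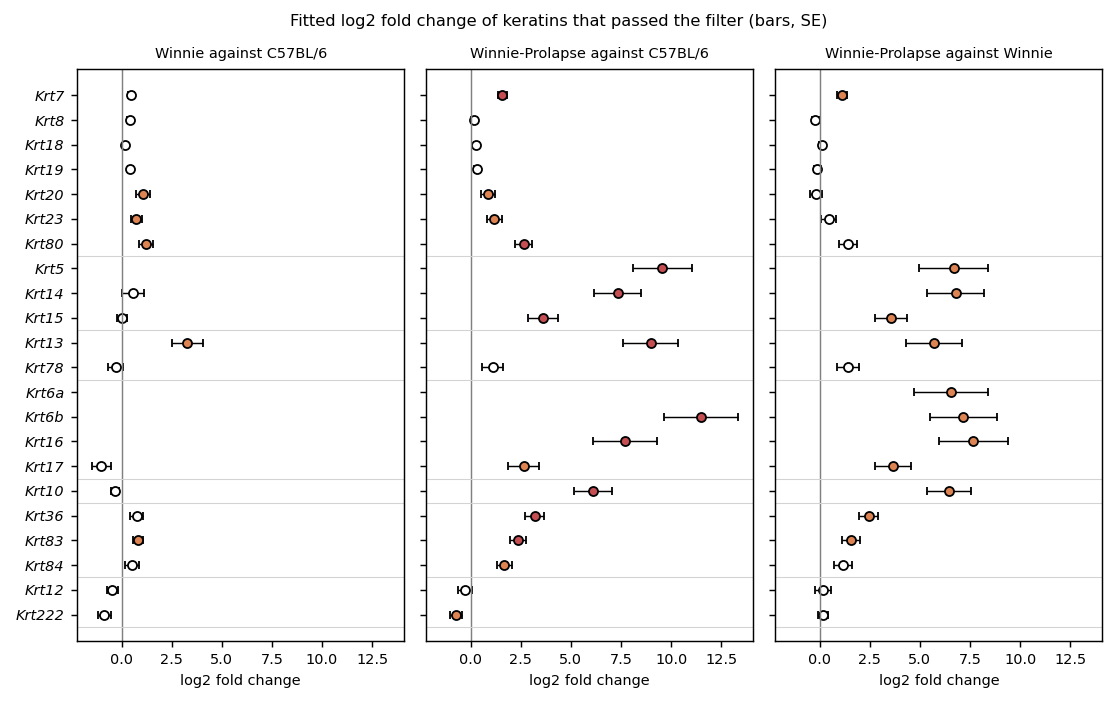
Log2 fold change with its SE (bars) of each tested keratin in the 3 comparisons, from edgeR's quasi-likelihood test. Red points passed an adjusted p under 0.001 and 1.5-fold, orange points an adjusted p under 0.05 and 1.5-fold, and white points neither; red points are seen in Winnie-Prolapse against C57BL/6 mice alone, 11 of them. Fitted values of genes with almost no control counts, such as Krt6b, depend on the model's prior count.

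These counts rested on particular libraries. The summed basal, mucosal, wound and cornified keratins were each above every C57BL/6 library in the 5 Winnie-Prolapse libraries in which all 14 squamous markers were above the floor, and within or below the C57BL/6 range in replicates 1 and 3. Single members departed from this, as given below for Krt2, Krt17, Krt76, Krt77, Krt78 and Krt6b. In replicate 1, Krt13 (1.51 CPM), Krt16 (1.04) and Krt6a (0.621) were also above every C57BL/6 library, whose maxima were 0.629, 0.708 and 0.0386 CPM. Summed without Sprr1a and Sprr2a3, which the colon also expresses, those markers stood at 107 to 809 CPM in the 5, at 2.81 and 3.27 CPM in replicates 1 and 3, at 9.93 CPM in Winnie replicate 2, at 1.81 to 5.64 CPM in the other Winnie and at 3.69 to 7.71 CPM in the C57BL/6 libraries. Their part in the result was not tested. In a fit without the libraries with Trp63 at 1 CPM or more, which leaves replicates 1 and 3 as the Winnie-Prolapse group and was chosen after seeing the data, 1 member passed the strict threshold, Krt6b, which was tested there only through those libraries. Trp63 marks the cells that use the squamous keratins, so that for these members the fit restates their values in 2 libraries and is no separate test. At the looser threshold it called 5 members higher, Krt6b, Krt7, Krt13, Krt19 and Krt23.

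Krt5 and Krt14, the pair of the basal squamous layer, rose in Winnie-Prolapse mice through 5 of the 7 libraries. Krt5 was at 0.0663 to 0.58 CPM in C57BL/6 (median 0.222) and 0.11 to 12.9 CPM in Winnie mice (median 0.234), the highest being Winnie replicate 2. In Winnie-Prolapse replicates 1 to 7 it was at 0.0592, 389.7, 0.0605, 235, 42.7, 113 and 647 CPM. Krt14 followed at 1.42, 511, 0.847, 253, 92.1, 88.2 and 1107 CPM, against 1.13 to 2.29 CPM in C57BL/6 and 0.578 to 12.2 CPM in Winnie mice. For both genes 5 of 7 Winnie-Prolapse libraries were far above every C57BL/6 library, and replicates 1 and 3 were within or below the control range. The log2 fold changes against C57BL/6 were 9.56 ± 1.47 for Krt5 (adjusted p of 8.32e-05) and 7.35 ± 1.17 for Krt14 (0.000107), and 8.81 and 6.32 without Winnie-Prolapse replicate 7. Krt5, unlike Krt14, was tested in both comparisons only with the counts of the Winnie-Prolapse group. Against Winnie mice they were 6.69 ± 1.72 (0.0305) and 6.78 ± 1.41 (0.018), and without Winnie replicate 2 they were 9.93 and 8.00. The Krt5 difference from Winnie mice missed the looser threshold in 6 of 14 fits with 1 library left out. With limma-voom neither passed the looser threshold against C57BL/6, nor did Krt15, and with males only Krt5 and Krt15 did not. Krt15, a type I keratin of basal cells that is also used as a follicle stem cell marker, was at 0.207, 26.9, 0.666, 11.5, 2.84, 15.4 and 21.6 CPM in the 7 replicates, with a log2 fold change of 3.61 ± 0.74 against C57BL/6 (0.000811).

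The mucosal keratins were led by Krt13, the type I keratin of the upper layers of oral, oesophageal and anal mucosa. Krt13 was at 0.0362 to 0.629 CPM in C57BL/6 mice (median 0.201) and 0.193 to 10.7 CPM in Winnie mice (median 0.777). In Winnie-Prolapse replicates 1 to 7 it stood at 1.51, 419, 0.514, 123, 12.5, 10.4 and 247 CPM, so replicate 3 alone overlapped the controls. The log2 fold change was 8.97 ± 1.36 against C57BL/6 (adjusted p of 7.13e-05). Against Winnie mice it was 5.70 ± 1.39 (0.0267), 7.17 without Winnie replicate 2 and 4.97 without Winnie-Prolapse replicate 2, and the looser threshold was missed without any of Winnie replicates 4 to 7. Against C57BL/6 it was 8.26 without Winnie-Prolapse replicate 2. In both of these comparisons Krt13 was tested only with the counts of the Winnie-Prolapse group. In Winnie against C57BL/6 mice the log2 fold change of Krt13 was 3.28 ± 0.78 (0.00951), but it reached the filter's level in 6 Winnie and 1 C57BL/6 libraries and so was tested only with the counts of the Winnie group. Its value without Winnie replicate 2 was 1.82 and passed the looser threshold, the only member to do so there; without C57BL/6 replicate 8 it had too few counts and was not tested.

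Krt4, the type II partner of Krt13, was at 0.0888, 266, 0.0303, 91.8, 6.05, 8.06 and 12.9 CPM in Winnie-Prolapse replicates 1 to 7, at 4.45 CPM in Winnie replicate 2 and at most 0.193 CPM in all other libraries. Krt76, a keratin of the hard palate, was at 13.8 CPM in Winnie-Prolapse replicate 7 and at most 0.259 CPM in every other library. Krt78, a further type II member, was found in the control colon at 0.507 to 4.8 CPM, and in 3 Winnie-Prolapse libraries (replicates 2, 4 and 7) at 10.3, 12.6 and 11.7 CPM, with 1.18 to 3.67 CPM in the other 4.

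Krt6b is a wound keratin of the type II cluster. No C57BL/6 library held more than 3 counts of it (0 to 0.0952 CPM), and Winnie libraries ran from 0 through a median of 0.231 to 4.1 CPM. Winnie-Prolapse replicates 1 to 7 stood at 0.829, 105, 0.666, 58.7, 4.71, 4.63 and 675 CPM. All 7 were above every C57BL/6 library, replicates 1 and 3 included. This held for 4 of the 21 members tested (Krt6b, Krt36, Krt83 and Krt84) and for 6.5% of all genes tested. The mean was at least 1141-fold higher than the C57BL/6 floor of 3 counts per library, with an adjusted p of 0.000115 in edgeR's test, and at least 273-fold higher without replicate 7. Since its counts in C57BL/6 mice were too low for the filter, it was tested only because it was high in the Winnie-Prolapse group. Against Winnie mice the log2 fold change was 7.17 ± 1.69 (0.0243), 4.96 without Winnie-Prolapse replicate 7 and 8.51 without Winnie replicate 2, and the looser threshold was missed without Winnie replicates 4 or 5. Of Krt6b, 30.6% of the 100-base exon windows also occur in another gene, 643 of them in Krt6a, so its reads could have been shared.

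Krt6a, its near copy, was at 0.621, 223, 0, 122, 11.7, 6.77 and 571 CPM in Winnie-Prolapse replicates 1 to 7, and at 9.997 CPM in Winnie replicate 2 against at most 0.0863 CPM in the other Winnie libraries. The mean was at least 1256-fold above the C57BL/6 floor, and at least 570.2-fold without replicate 7. Replicate 3 held no Krt6a counts but 0.666 CPM of Krt6b, so the copies did not move as a fixed ratio. Krt16, the type I partner of the Krt6 keratins, was at 1.04, 15.6, 0.182, 12.4, 2.68, 0.886 and 424 CPM, and replicate 7 alone held most of the group's total; 24.3% of its windows occur in other genes. Its log2 fold change against C57BL/6 was 7.70 ± 1.59 (adjusted p of 0.000875) and 3.90 without replicate 7. Krt16 was tested there only with the counts of the Winnie-Prolapse group, and with limma-voom it did not pass the looser threshold. Krt15 and Krt16 were the members of the 11 that missed the strict threshold in some fits with 1 library left out, in 12 and 11 of 15.

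Krt17, a wound keratin that is also expressed in glands and follicles, behaved unlike the other 3. It was present in the control colon at 1.78 to 11.4 CPM (median 5.22), in Winnie libraries at 0.798 to 7.38 CPM (median 1.57), and at 0.473, 84.7, 1.51, 27.5, 29.0, 8.42 and 76.5 CPM in Winnie-Prolapse replicates 1 to 7. The groups overlapped. Log2 fold changes were -1.0 ± 0.47 for Winnie against C57BL/6 (adjusted p of 0.12), 2.64 ± 0.77 for Winnie-Prolapse against C57BL/6 (0.00912) and 3.66 ± 0.92 for Winnie-Prolapse against Winnie mice (0.0285). Krt17 was lower in Winnie against C57BL/6 mice at the looser threshold without Winnie replicate 5 and with males only. Both Winnie-Prolapse differences missed that threshold with limma-voom and with males only, and the difference from Winnie mice missed it in 6 of 14 fits with 1 library left out.

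**Figure D4:**
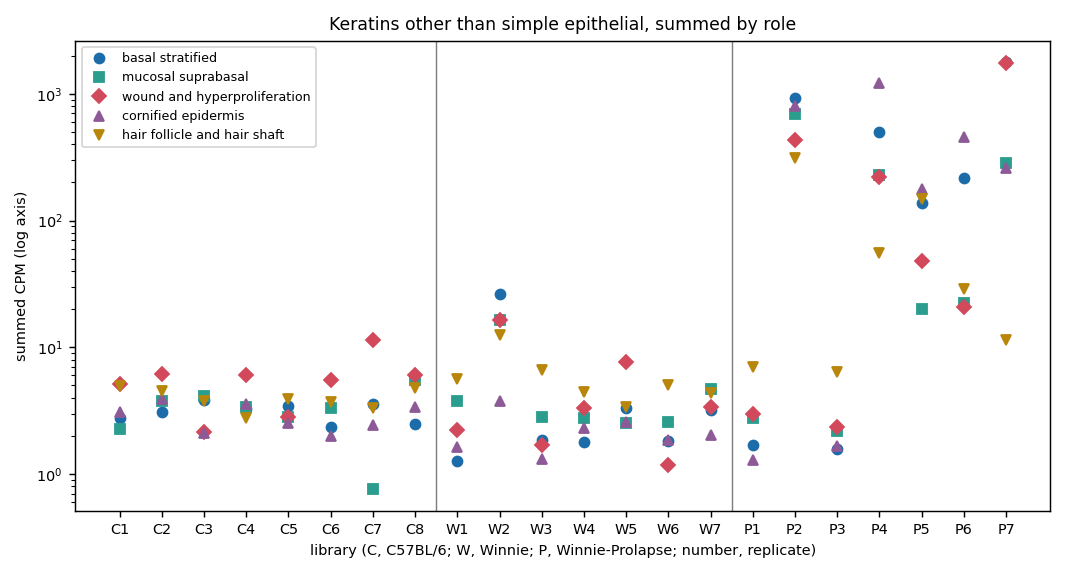
Summed CPM of the basal, mucosal, wound, cornified and hair keratins in each library, on a log axis; each point is 1 library. Winnie-Prolapse replicates 2, 4, 5, 6 and 7 stand above the rest in every role except hair, where replicate 7 (11.5 CPM) is below Winnie replicate 2 (12.4 CPM), with basal sums of 138 to 1776 CPM against at most 3.87 CPM in C57BL/6 mice, and in replicate 7 the basal and wound sums lie on top of each other at 1776 and 1746 CPM.

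The cornified keratins showed a different order of libraries. Krt1, the type II keratin of the cornifying layers of skin, was at 0.0296, 408, 0.0303, 704, 103, 215 and 109 CPM in Winnie-Prolapse replicates 1 to 7, and at most 0.609 CPM in all C57BL/6 and Winnie libraries. Krt10, its type I partner, stood at 1.24, 372, 1.63, 507, 74.9, 195 and 150.5 CPM, against 1.81 to 3.73 CPM in C57BL/6 and 1.2 to 3.14 CPM in Winnie mice. Replicate 4 was the highest for both genes, and replicates 1 and 3 were below every C57BL/6 library. Krt10 rose by 6.11 ± 0.96 on the log2 scale against C57BL/6 (adjusted p of 9.9e-05) and by 6.45 ± 1.08 against Winnie mice (0.0105). With limma-voom it did not pass the looser threshold in either comparison. Krt2, a late keratin of the skin surface, was at 40.4 CPM in replicate 6, 4.1 CPM in replicate 4 and at most 0.129 CPM in all other libraries. Krt77, a keratin of sweat gland ducts, was at 14.2, 6.58, 0.686 and 7.01 CPM in replicates 2, 4, 5 and 6 and at most 0.0368 CPM elsewhere.

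The hair keratins split into a small set that the colon expressed at low level and a large set that it did not. Krt36, Krt83 and Krt84 were present in every library, and these were the other 3 members with no overlap between Winnie-Prolapse and C57BL/6 libraries. Krt36, a type I hair and tongue keratin, was at 0.398 to 1.54 CPM in C57BL/6 mice and at 1.75, 18.2, 2.0, 11.9, 7.91, 5.92 and 5.11 CPM in Winnie-Prolapse replicates 1 to 7. Krt83 ran from 0.887 to 1.74 CPM and stood at 2.34, 16.6, 1.75, 8.83, 11.7, 5.64 and 2.21 CPM. Krt84 ran from 0.47 to 2.04 CPM and stood at 2.6, 14.2, 2.21, 4.89, 4.22, 3.42 and 2.24 CPM. Replicates 1 and 3 were just above the control range for all 3. The log2 fold changes against C57BL/6 were 3.20 ± 0.46 for Krt36 (adjusted p of 4.89e-05), 2.38 ± 0.41 for Krt83 (0.000212) and 1.69 ± 0.38 for Krt84 (0.00166, past the looser threshold). Against Winnie mice Krt36 differed by 2.44 ± 0.45 (0.014) and Krt83 by 1.57 ± 0.46 (0.0485), a value that missed the looser threshold in 10 of 14 fits with 1 library left out, with limma-voom and with sex as a covariate. Krt83 also passed the looser threshold in Winnie against C57BL/6 mice, at 0.81 ± 0.24 (0.0242).

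Of the 24 hair members, 19 did not exceed 3 counts in any C57BL/6 or Winnie library. Winnie-Prolapse replicate 2 held more than 3 counts of all 19, replicate 5 of 17, replicate 6 of 15, replicate 4 of 9, and replicates 1, 3 and 7 of 1 each. Krt71 and Krt25, which pair in the inner root sheath of the follicle, were at 16.5 and 13.7 CPM in replicate 2, 15.7 and 8.01 CPM in replicate 5, and 2.34 and 1.41 CPM in replicate 6. Krt27, of the same sheath, was at 3.36, 2.45 and 0.806 CPM there, and Krt73 at 8.34, 1.96 and 0.483 CPM. The hair shaft members Krt31, Krt33a, Krt33b, Krt81 and Krt86 ranged from 2.52 to 8.92 CPM in replicate 2 and from 2.71 to 5.03 CPM in replicate 5, and Krt35 was at 12.6 CPM in replicate 2 and at most 0.458 CPM in any other library. Krt79, a marker of the duct that joins the sebaceous gland to the follicle, was at 165 CPM in replicate 2, 69.1 CPM in replicate 5, 26.7 CPM in replicate 4 and 4.39 CPM in replicate 6. The hair follicle markers other than keratins (Tchh, Msx2, Hoxc13, Lhx2 and Dlx3) summed to 28.2 CPM in replicate 2, 15.5 in replicate 5 and 8.03 in replicate 4, and at most 5.30 CPM in every other library. Their part in the result was not tested. Between 10.97% and 29.0% of the 100-base windows of Krt31, Krt33a, Krt34, Krt81, Krt83 and Krt86 occur in other genes, so counts may be split among hair members.

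The mixture of roles differed between the 5 libraries. In replicate 4 the cornified keratins led, with 1222 CPM against 499.6 CPM of basal, 228 of mucosal and 220.5 of wound keratins. In replicate 7 the basal and wound keratins led at 1776 and 1746 CPM, with 285 CPM of mucosal, 259.5 of cornified and 11.5 of hair keratins. Lor, the main protein of the skin's cornified envelope, was at 0.589 CPM there against 14.2 to 151 CPM in the other 4. Of the other squamous markers, Ivl, Sbsn and Crnn were also lowest of the 5 in replicate 7. Krtdap (29.7 CPM), Cnfn (22.5), Lypd3 (46.4), Sprr1a, Sprr1b, Sprr3, Dsg3, Calml3 and Trp63 were higher there than in replicates 5 and 6, and Sprr2a3 lay between these. Replicate 2 held all roles at once, with 927, 794, 695, 428 and 309 CPM of basal, cornified, mucosal, wound and hair keratins. Replicate 5 had 147 CPM of hair keratins beside 178 of cornified and 138 of basal, and replicate 6 had 458 CPM of cornified beside 217 of basal and 22.4 of mucosal keratins. All keratins other than simple came to 33.1% of keratin counts in replicate 7, the highest share of any library, and to 0.150% in replicate 3. The number of members above 3 counts was 19 to 22 in C57BL/6, 20 to 25 in Winnie and 22, 48, 21, 37, 45, 44 and 26 in Winnie-Prolapse replicates 1 to 7.

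Winnie replicate 2 stood apart from the other 14-week libraries for basal, mucosal, wound and hair keratins. Its mucosal, wound and hair sums were near the lowest of the 5 Winnie-Prolapse libraries, at 19.9 CPM (replicate 5), 20.7 CPM (replicate 6) and 11.5 CPM (replicate 7), and its basal sum was below their lowest, 138 CPM. Its basal keratins summed to 26.4 CPM, its mucosal to 16.3, its wound to 16.4 and its hair keratins to 12.4 CPM, while its cornified sum of 3.75 CPM lay within the C57BL/6 range of 2.01 to 3.90 CPM. All members other than simple came to 76.4 CPM there, against 14.1 to 22.1 CPM in the other 6 Winnie libraries. Without it, the Winnie means fell from 2.02 to 0.204 CPM for Krt5, from 2.70 to 1.12 for Krt14, from 2.15 to 0.726 for Krt13 and from 1.46 to 0.0402 for Krt6a.

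Type I and type II partners were compared per kilobase within a library, where both had over 20 counts. Krt8 over the sum of Krt18, Krt19 and Krt20 had a median of 0.687 in C57BL/6 (0.555 to 0.780), 0.596 in Winnie (0.576 to 0.685) and 0.569 in Winnie-Prolapse mice (0.530 to 0.600), and the ranges overlapped. The C57BL/6 and Winnie-Prolapse ranges met only through C57BL/6 replicate 7 (0.555), the next lowest C57BL/6 library being replicate 6 at 0.639. Krt5 over Krt14 was 0.371 to 1.02 in the 5 Winnie-Prolapse libraries, with a median of 0.611, and 0.848 in Winnie replicate 2. Krt1 over Krt10 was 0.347 to 0.665 in the same 5. The length used for Krt1, all its annotated exon bases, is 4415 against 2455 in its longest protein-coding transcript, which lowers this ratio. For Krt10 these lengths are 2114 and 2094. Krt4 over Krt13 ran from 0.0445 in replicate 7 up to 0.662 in the others. Krt8 over Krt18 alone was 5.14 to 6.64 in C57BL/6, 5.68 to 8.41 in Winnie and 3.31 to 8.2 in Winnie-Prolapse mice. Krt6a over Krt16 was 0.388 to 9.24 in 6 Winnie-Prolapse libraries, at 0.871 in replicate 7, and 8.41 in Winnie replicate 2.

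The last 2 named members fell outside these roles. Krt222, a keratin-like gene expressed in neural tissue, was at 0.65 to 2.93 CPM in C57BL/6, 0.449 to 1.38 in Winnie and 0.564 to 0.92 in Winnie-Prolapse mice. With edgeR on filtered counts of the 2 groups compared, with all their libraries and no covariate, it was the only member lower at the looser threshold, by -0.73 ± 0.29 on the log2 scale in Winnie-Prolapse against C57BL/6 mice (adjusted p of 0.0477), and its value was -0.41 without C57BL/6 replicate 7. The call was lost in 9 of 15 fits with 1 library left out (C57BL/6 replicates 4, 6 and 7 and Winnie-Prolapse replicates 1 to 6), with sex as a covariate and with limma-voom. In Winnie against C57BL/6 mice Krt222 was lower at that threshold with sex as a covariate, with all 3 groups in the same fit and with DESeq2, and Krt12 with males only. Krt12, the keratin of the corneal epithelium, was at 0.669 to 2.32 CPM in C57BL/6 mice, with overlapping ranges of 0.577 to 1.54 and 0.322 to 2.17 CPM in the other groups. The 13 members not named ran from 0 to 3.85 CPM over all libraries.

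Keratin filaments are anchored at desmosomes, and squamous keratins are under known regulators, so a list of 27 such partner genes was followed beside them, 26 of which were in the table and 20 tested in each comparison. In Winnie against C57BL/6 mice 0 passed the strict threshold in either direction, and 4 were higher and 1 lower at the looser one, against 7.42% and 8.53% of all genes. In Winnie-Prolapse against C57BL/6 mice 6 rose and 2 fell at the strict threshold, against 9.84% and 8.47% of all genes, so the share that fell was near that of all genes. In Winnie-Prolapse against Winnie mice 0 passed it and 4 were higher at the looser one, against 4.27% of all genes. Dsc3 was among the 6 and among these 4, and in both comparisons it passed the filter only with the counts of the Winnie-Prolapse group. The median log2 fold changes of the list were 0.28, 0.62 and 0.26, beside -0.01, -0.01 and 0.01 over all genes tested. Grhl3, a grainyhead-like regulator of epithelial barrier genes, had log2 fold changes of 2.90 ± 0.59 in Winnie (adjusted p of 0.00481) and 3.92 ± 0.44 in Winnie-Prolapse against C57BL/6 mice (4.98e-06). Winnie replicate 2 held 26.4 CPM of it, against 1.90 to 9.17 CPM in the other Winnie libraries. Dsc3, a desmosomal cadherin of squamous cells, rose by 5.73 ± 0.93 in Winnie-Prolapse against C57BL/6 mice (0.000124), as did its colonic relative Dsc2 by 1.37 ± 0.23 (0.000166). Unlike Dsc2, Dsc3 had too few C57BL/6 libraries at the filter's level and was tested only because it was high in the Winnie-Prolapse group. Grhl1, a relative of Grhl3, rose by 3.46 ± 0.57 (0.00014). In Winnie-Prolapse replicates 1 and 3, Dsc3 (0.355 and 0.272 CPM) and Grhl1 (1.42 and 0.998 CPM) were within the C57BL/6 ranges of 0.0635 to 0.887 and 0.444 to 1.99 CPM, against 10.6 to 50.4 and 7.71 to 26.0 CPM in the 5 libraries with squamous markers. The members that fell were Ovol1, a repressor active in differentiating epithelium, by 0.86 ± 0.13 (6.65e-05), and the cytolinker Dst, by 0.87 ± 0.16 (0.000312). Dsg2 and Klf5, expressed throughout the colonic lining, differed by 0.04 ± 0.10 (0.75) and -0.03 ± 0.17 (0.879).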

How the data were processed

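Poly(A) RNA was made into libraries with a stranded kit, sequenced as 100-base paired ends on an MGISEQ-2000RS and mapped to GRCm38 with RNAsik 1.5.4, per the labels and the study's methods. The authors deposited raw featureCounts counts per gene; whether counting used strand is not given in the sources used here, and 11 members overlap antisense genes. All 22 columns were mapped to samples and used; the study's own analysis of colon RNA used fewer Winnie mice than the labels hold. Differences were fitted in R 4.3.3 with edgeR 4.0.16 (TMM, filterByExpr with a minimum count of 10, quasi-likelihood test, Benjamini-Hochberg adjustment over all genes tested), with the libraries of the 2 groups compared, at an adjusted p under 0.001 and 1.5-fold as in the study, or under 0.05. DESeq2 1.42.0 and limma 3.58.1 (voom), other filters, a sex term, single sexes and leaving out each library were alternatives. The fit was tested on simulated data with the same spread for all genes and the same change in all libraries of a group. That setting does not cover members that are high in only some libraries of a group. Each SE is the absolute log2 fold change divided by the square root of edgeR's F statistic, and does not describe the spread of the libraries. CPM uses deposited totals. Members were matched by ID to GENCODE M21 for exon length and position, where the table's Krt83 is named Krt87. No replicates agreed within sampling noise. The members, the roles and all lists were chosen with earlier results of these data known. Named were Krt20, Krt6b, Krt13, every tested simple keratin and every member with a group mean of 1 CPM or a call, 38 in all. Floors cover counting error only.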

Additional observations from a re-analysis of the deposited data

Results flagged for a closer look

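Within each group of libraries, the highest and the lowest were compared with their nearest neighbour relative to the whole range of the group. In 21 of 69 groups tested for the named keratins 1 library stood apart from the rest. The limit used is passed in about 1 in 20 groups of normally distributed values. CPM need not be so distributed, so that rate may not apply here, and members of a role share their libraries. Winnie replicate 2 was set apart by 10.7 CPM of Krt13, 12.2 of Krt14, 12.9 of Krt5, 9.997 of Krt6a and 4.71 of Krt83, and Winnie replicate 5 by 7.38 CPM of Krt17. C57BL/6 replicate 7 stood apart by 2170.1 CPM of Krt20, 11.4 of Krt17 and 2.93 of Krt222.

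Among Winnie-Prolapse mice, replicate 7 was set apart by wound and palate keratins, with 424 CPM of Krt16, 571 of Krt6a, 675 of Krt6b and 13.8 of Krt76. Replicate 2 was set apart by hair, gland and mucosal keratins, with 8.92 CPM of Krt31, 12.6 of Krt35, 266 of Krt4, 8.34 of Krt73, 165 of Krt79 and 14.2 of Krt84. Replicate 6 stood apart by 40.4 CPM of Krt2 and replicate 3 by 29.95 CPM of Krt23.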

How the results depend on the processing

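The number of keratins higher in Winnie against C57BL/6 mice at the strict threshold was 0, and became 2 with DESeq2 and 5 at the looser adjusted p of 0.05. For Winnie-Prolapse against C57BL/6 mice it was 11, and became 24 with DESeq2, 3 with limma-voom, 18 with no filter on low counts, 6 with a filter of 10 counts in every library, 0 with males only, 3 with females only and 1 without the libraries with Trp63 at 1 CPM or more. The count of lower keratins there went from 0 to 1 (Krt222) at the looser adjusted p of 0.05. Between Winnie-Prolapse and Winnie mice the number higher went from 0 to 13 with DESeq2, 1 with all 3 groups in the same fit, 3 with females only and 12 at an adjusted p under 0.05. With each library left out in turn the numbers higher ran from 0 to 0, from 9 to 12 and from 0 to 0 in the 3 comparisons. Of the 12 at the looser threshold in Winnie-Prolapse against Winnie mice, 5 passed in all 14 such fits (Krt10, Krt14, Krt15, Krt16 and Krt36). Krt7 missed it without Winnie replicate 4, Krt6b without Winnie replicates 4 or 5, Krt13 without Winnie replicates 4 to 7, Krt5 and Krt17 in 6 fits each, Krt83 in 10 and Krt6a in 11.

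Directions of single keratins turned for 17 values from 5 fits, 13 of them without the libraries with Trp63 at 1 CPM or more. Without the libraries with Trp63 at 1 CPM or more, log2 fold changes of Winnie-Prolapse against C57BL/6 became -0.74 for Krt10, -0.56 for Krt14, -0.95 for Krt15, -2.19 for Krt17 and -1.97 for Krt5. Against Winnie mice the same fit gave -0.32 for Krt10, -0.95 for Krt15, -1.31 for Krt17, -0.049 for Krt18, 0.13 for Krt19, 0.23 for Krt20, 0.074 for Krt8 and -0.035 for Krt80. In the same comparison, females only gave -0.10 for Krt18 and -0.37 for Krt23, males only 0.019 for Krt19, and leaving out each library in turn gave -0.045 (Winnie-Prolapse replicate 3) to 0.58 for Krt23. The cause was not tested. No paired analysis was possible because the labels give no replicate numbers shared between groups.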
